A study of Homo sapiens with 24 samples.

Results

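Epithelial cells rest on a basement membrane, a sheet of laminins and type IV collagen that they partly make themselves. The 8 genes described here encode 5 laminin chains (*LAMA3*, *LAMA5*, *LAMB1*, *LAMB3* and *LAMC1*), both chains of the widespread type IV collagen (*COL4A1* and *COL4A2*), and the transmembrane collagen XVII (*COL17A1*). They were chosen by name, with earlier results of these data known. Each of the 8 was found among the 58051 gene identifiers of the files. Counts of called members are therefore a description and not a test of the set. Expression was compared in HT29, HCT116 and SW480, 3 established human colorectal cancer cell lines, between clones with intact *CTNNB1*, the gene of β-CATENIN (WT), and clones in which CRISPR/Cas9 deletion of an exon had inactivated both alleles (KO). The WNT pathway is active in the WT clones, since HT29 and SW480 carry inactivating *APC* mutations and HCT116 carries an activating *CTNNB1* mutation. For each line there were 2 WT and 2 KO clones, and RNA-seq of each clone was done in independent rounds A and B, which gave 4 libraries per line and genotype and 24 in all. The clones were WT 11, WT 40, KO 28 and KO 38 in HT29, WT 4, WT 6, KO 44 and KO 47 in HCT116, and WT 4, WT 5, KO 17 and KO 21 in SW480. A KO group therefore stands for 2 clones, and differences between clones are part of every spread given here.

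Laminins are cross-shaped trimers of an α, a β and a γ chain, which assemble inside the cell before secretion. *LAMA3* and *LAMB3* encode the α and β chains of laminin-332, the ligand that anchors epithelia through integrin α6β4 in the hemidesmosome, of which collagen XVII is a transmembrane component. The chains of *LAMA5*, *LAMB1* and *LAMC1* form laminin-511, a major laminin beneath the intestinal epithelium. The products of *COL4A1* and *COL4A2* assemble with each other into the type IV collagen network, and the 2 genes are transcribed away from each other from a shared stretch of DNA.

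That stretch and the DNA just upstream of 3 other genes are shown because their KO and WT libraries did not overlap in SW480 and differed past the fold threshold. *LAMB1*, whose libraries did not overlap there either, stayed under that threshold and is not shown. The sequences are from RefSeq (GRCh38.p14, whereas the gene counts use GRCh37), and all 8 members had an entry. Each is given on the strand of the gene named first and ends at the last base before the start of transcription. Capitals mark a TCF/LEF word (CTTTG followed by AA, by AT, by TA or by TT), an AP-1 word (TGANTCA) or a GC box (GGGCGG), searched on both strands, where CCGCCC is the GC box read on the other strand. *LAMB3* has 3 starts in the table, and the one farthest upstream is shown. *LAMA3* has 1 start there, although longer and shorter transcripts of the gene begin at different places, which counts per gene do not tell apart. The windows lie at chr18:23872770-23873019 for *LAMA3* (plus strand), chr1:209652426-209652675 for *LAMB3* (minus strand), chr10:104085881-104086130 for *COL17A1* (minus strand) and chr13:110307158-110307283 between the starts of *COL4A1* and *COL4A2* (plus strand).
LAMA3: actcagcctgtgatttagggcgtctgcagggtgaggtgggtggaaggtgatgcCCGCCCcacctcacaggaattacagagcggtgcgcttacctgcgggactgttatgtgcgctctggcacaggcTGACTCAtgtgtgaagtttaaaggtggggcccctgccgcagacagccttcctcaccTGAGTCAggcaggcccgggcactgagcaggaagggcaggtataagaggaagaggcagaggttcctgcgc
LAMB3: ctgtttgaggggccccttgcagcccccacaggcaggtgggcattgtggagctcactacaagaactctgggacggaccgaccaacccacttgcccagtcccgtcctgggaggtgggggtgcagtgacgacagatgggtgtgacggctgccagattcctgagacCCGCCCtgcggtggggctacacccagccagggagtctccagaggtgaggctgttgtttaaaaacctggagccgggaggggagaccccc
COL17A1: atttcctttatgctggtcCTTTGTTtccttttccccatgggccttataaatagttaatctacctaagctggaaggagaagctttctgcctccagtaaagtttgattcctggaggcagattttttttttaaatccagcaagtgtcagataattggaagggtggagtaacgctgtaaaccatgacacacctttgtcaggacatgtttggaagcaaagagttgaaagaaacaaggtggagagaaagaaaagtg
COL4A2/COL4A1: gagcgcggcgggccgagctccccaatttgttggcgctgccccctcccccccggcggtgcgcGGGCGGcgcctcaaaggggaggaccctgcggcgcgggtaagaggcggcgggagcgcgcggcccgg
The *LAMA3* window held 2 AP-1 words, at positions 126 and 182 from its first base, and the only TCF/LEF word among these windows was in *COL17A1*, at position 19. The starts of *COL4A1* and *COL4A2* are separated by 126 bases, of which 80.2% are G or C, against 40.4% of the *COL17A1* window. Of 34941 windows of 250 bases upstream of RefSeq starts, 12% held a TCF/LEF word, 6.59% an AP-1 word and 42.5% a GC box. A match is only a string of letters and says nothing about binding.

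The values below are the deposited normalized counts, which are reads per gene divided by 1 size factor per library, and libraries are listed as A and B of the first clone and then A and B of the second. The reads assigned to genes numbered 22297049 to 29068378 in a library. A gene was called where limma on log2 of the value plus 1 gave an adjusted p (Benjamini-Hochberg, over all genes tested) under 0.05 and a log2 fold change over 1 in size. Log2 fold changes are KO minus WT on this scale with their standard error, and they understate changes of genes near 0. Since the 4 libraries of a group come from 2 clones, p-values measure the spread between these libraries and not between many independent clones. *CTNNB1* itself was at 5883 to 50939 in WT and 187 to 1312 in KO libraries, and the WNT target *AXIN2* at 266 to 12213 and 6.66 to 591, with every KO library below every WT library of its line. Of the 9 markers of colorectal epithelium, *KRT20* and *LGALS4* were at 3 reads or fewer in every KO library of HCT116 and SW480. In WT, *LGALS4* was at 3 reads or fewer in every HCT116 library too, and had 6 reads in all in SW480. *KRT20* had 335 reads in HCT116 WT and 12 in SW480 WT. Stromal markers summed to 14.2 to 26.9 in HT29 WT and 109 to 1212 in HT29 KO libraries, where *LUM* accounted for 82.5 to 1125, and to 220.2 to 567 in the other groups. The 4 endothelial markers with a symbol in the files summed to at most 234, and *PTPRC*, the pan-leukocyte marker, was at 3 reads or fewer in every library except HCT116 KO 47A, with 4. The leukocyte list summed to 17662 to 31381 in HT29, nearly all of it *LYZ*, to at most 22.5 in HCT116 and to 52.4 to 254 in SW480. Called genes of these marker lists included *KRT20*, *KRT19*, *LGALS4* and *LUM* (higher) in HT29 KO, *CDH1* (higher) and *KRT20* (lower) in HCT116 KO, and *VWF*, *CD14* and *LYZ* (higher) and *CDX2* and *COL1A2* (lower) in SW480 KO. Of these, *LUM* in HT29, *KRT20* in HCT116 and *LYZ* and *COL1A2* in SW480 entered the test only through the genotype in which they were high. The part of other cell types in the results was not tested, and in bulk RNA fewer cells of a type and less RNA per cell cannot be told apart.

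Libraries A and B of a clone were not equally alike in all lines. In HT29 KO 38, genes whose longest transcript has at least 8000 bases were lower in round B than in A by a median of 0.59 on the log2 scale, whereas genes under 2000 bases were higher by 0.76. In HT29 WT 11 the medians were −0.41 and 0.28, and in the other 10 clones the long and short medians were at most 0.55 apart. Of the members, *LAMA3* (10651 bases) and *LAMA5* (11426) reach 8000, and the others have from 4305 in *LAMB3* to 7929 in *LAMC1*. In KO 38, *LAMA3* was 1.93 lower in B than in A, *LAMC1* 1.11, *COL17A1* 1.15 and *LAMA5* 0.64 on the log2 scale. *LAMB3* was 0.23 and *LAMB1* 0.06 lower, whereas *COL4A2* was 0.22 higher. HCT116 KO 47A stood apart in another way, since it held reads on 9400 genes that had none in the other 7 libraries of the line, against 234 to 629 such genes in each of the other 23 libraries. The part of these features in the results was not tested.

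**Figure D1:**
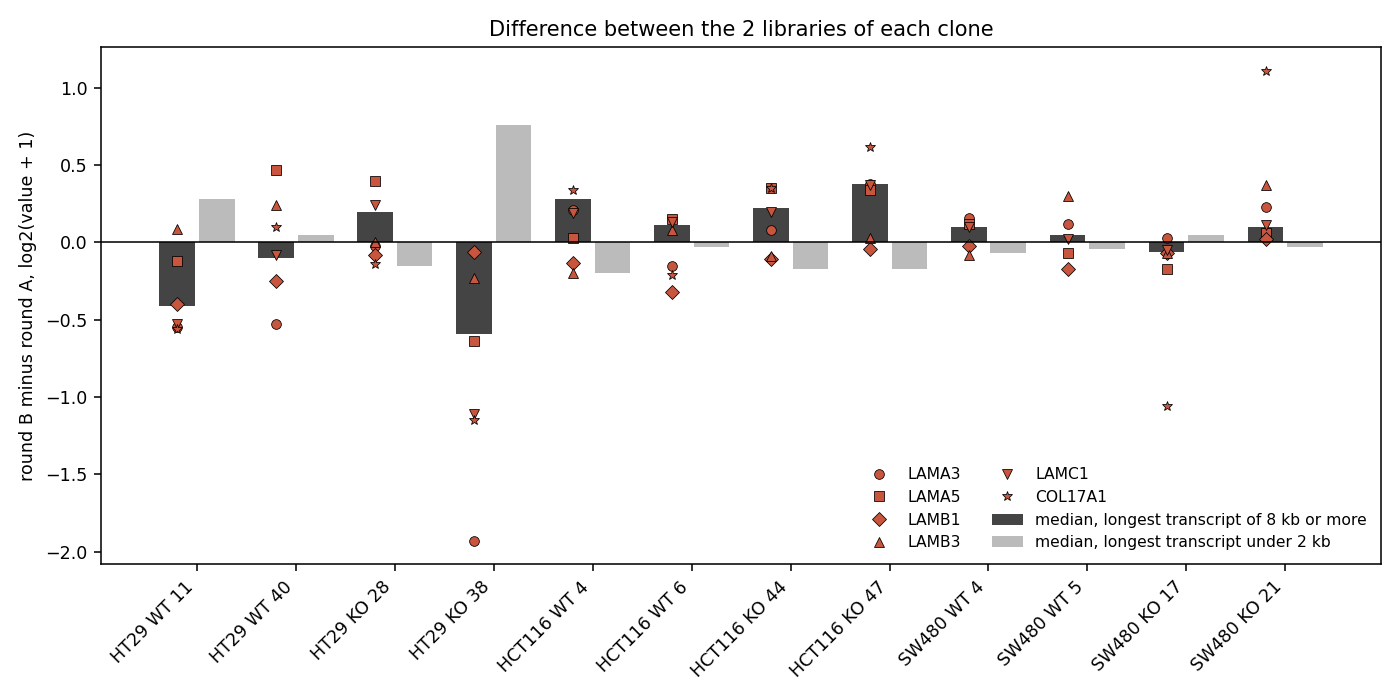
Round B minus round A on the log2(value + 1) scale for each of the 12 clones. Dark bars are the median over genes with a longest transcript of 8000 bases or more, light bars the median over genes under 2000 bases, and red symbols single members (*COL17A1* is left out for SW480 WT, where it had 2 reads in all). In HT29 KO 38 the dark bar is at −0.59 and the light bar at 0.76, and *LAMA3* lies at −1.93.

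*LAMA3* and *LAMB3*, the α and β chains of laminin-332, were called higher in KO than in WT clones of HCT116 and SW480. In HCT116, *LAMA3*, *LAMB3* and *LAMC1* rose, which is 3 of the 6 members that could be tested, and none fell. Without KO 47A the count in HCT116 was 3 as well, and without KO clone 47 it was 2. In SW480, *LAMA3* and *LAMB3* rose and *COL4A2* fell, which is 3 of the 6 members that passed the filter on low values in both genotypes. In HT29 no member of 7 tested was called by limma, edgeR or DESeq2, and 1, *LAMB3*, had an unadjusted p under 0.05. Among all genes tested, 3.17% were called higher and 1.89% lower in HCT116, 10.7% and 6.76% in SW480, and 1.90% and 0.402% in HT29. *COL4A1* could not be tested in any line and *COL4A2* could not in HCT116, because their values were under 10 in too many libraries. *COL17A1* in SW480 passed that filter only through its KO libraries, so that its call is not counted and its reads are given as a description.

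**Figure D2:**
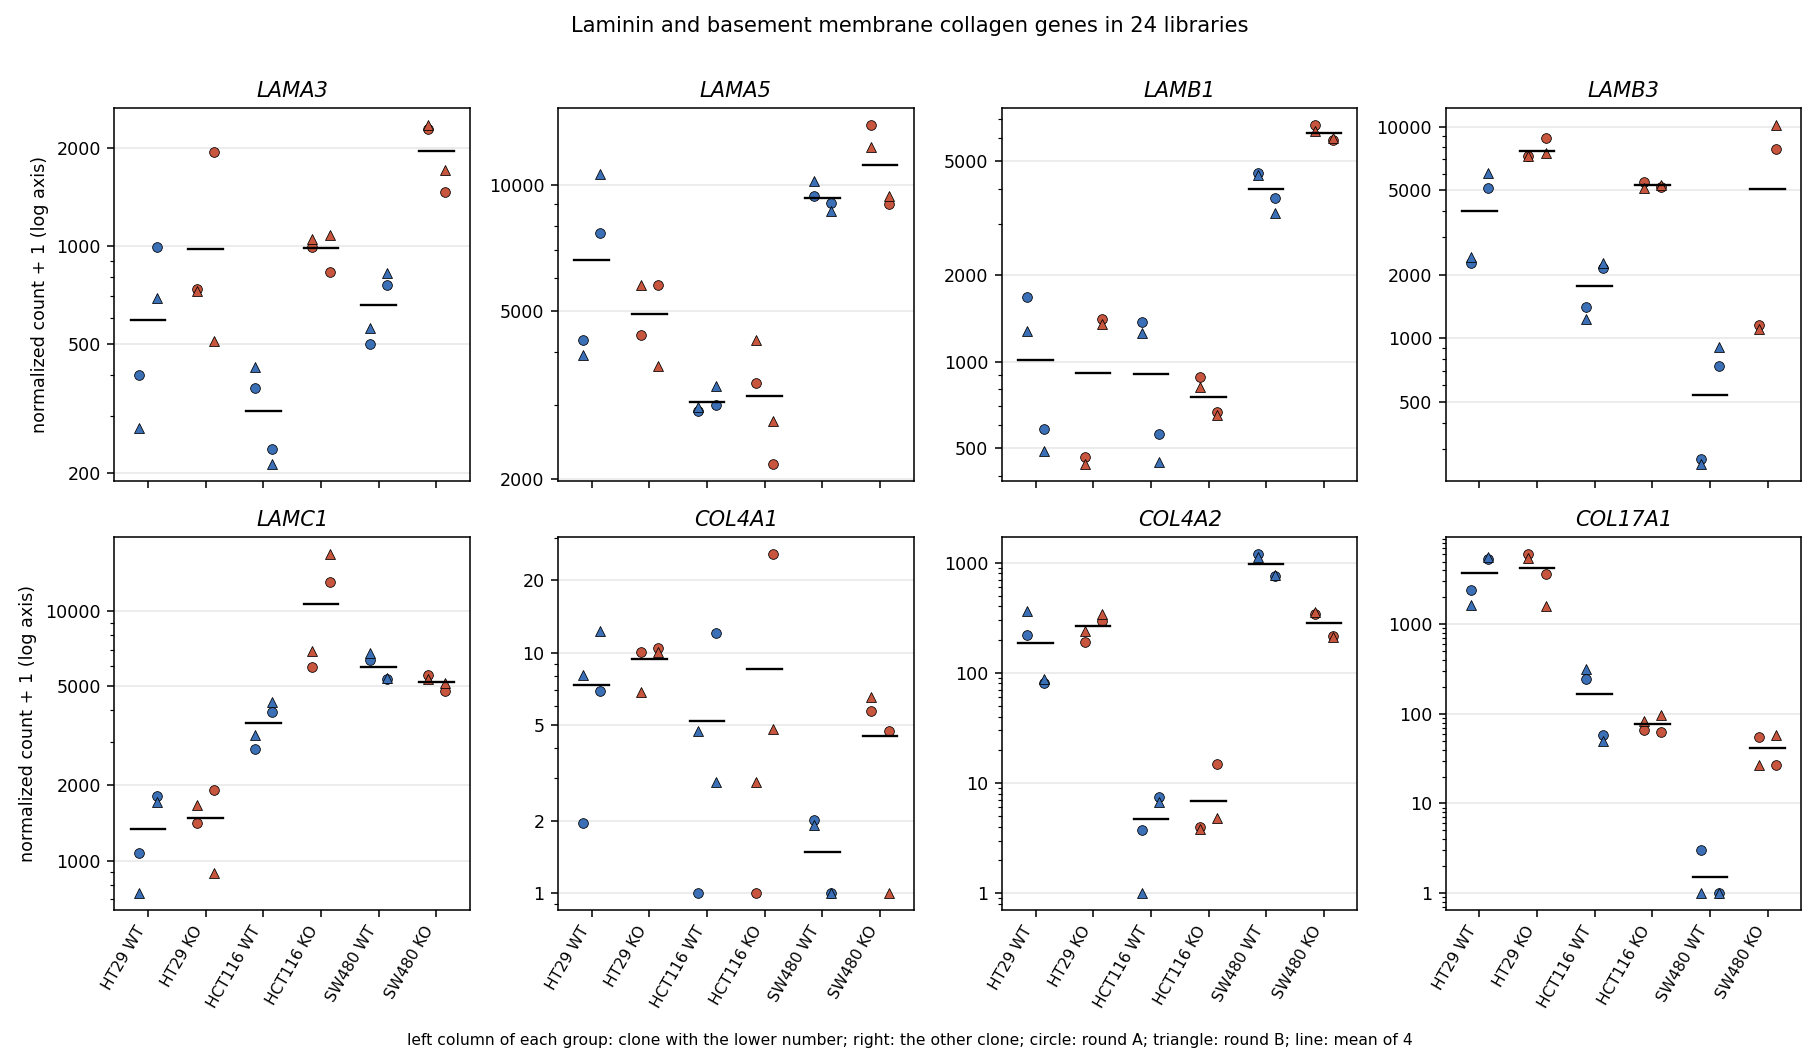
Normalized count plus 1 (log axis) of the 8 members in the 24 libraries, by line and genotype. In each group the left column is the clone with the lower number, circles are round A, triangles are round B, and the line is the mean of 4. In each of the 3 lines *LAMB3* lies higher in all 4 KO libraries than in all 4 WT libraries, whereas *LAMB1* splits by clone in HT29 and in HCT116 WT.

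*LAMA3* (ENSG00000053747, chromosome 18 of GRCh37 from 21269417 to 21536186) encodes the α chain of laminin-332. In HCT116 it was at 364, 422, 236 and 212 in WT and at 989, 1048, 828 and 1080 in KO libraries. In SW480 it was at 498, 556, 757 and 824 in WT and at 2290, 2345, 1458 and 1706 in KO. In both lines every KO library was above every WT library. *LAMA3* rose 3.31-fold in HCT116 (log2 fold change 1.73 ± 0.21, limma adjusted p = 0.00036) and 2.96-fold in SW480 (1.57 ± 0.20, adjusted p = 0.00012). Both calls were made in all 22 alternatives, with the highest adjusted p, 0.0205 and 0.0132, after summing a clone's reads over its rounds. HT29 gave 400.4, 274, 992 and 689 in WT and 736, 726, 1945 and 508 in KO, so that the groups overlapped (log2 fold change 0.70 ± 0.49, adjusted p = 0.50). The single highest value, in KO 38A, stands beside the lowest KO value, in round B of the same clone.

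*LAMB3* (ENSG00000196878, chromosome 1, 209788215 to 209825770) encodes the β chain of laminin-332 and was the member whose KO libraries lay above the WT libraries in all 3 lines. The share of all genes whose libraries separate in this way was not counted. For this and the other members, separation is therefore only a description. *LAMB3* was at 2279, 2420, 5135 and 6055 in HT29 WT and at 7242, 7224, 8815 and 7517 in HT29 KO. In HCT116 the WT values were 1409, 1228, 2152 and 2276 and the KO values 5480, 5149, 5187 and 5290. In SW480 they were 268, 254, 736 and 908 in WT and 1158, 1101, 7864 and 10149 in KO. The 4 HCT116 KO libraries thus differed little, whereas in SW480 both KO 21 libraries exceeded both KO 17 libraries. *LAMB3* rose 3.09-fold in HCT116 (log2 fold change 1.63 ± 0.18, limma adjusted p = 0.00019) and 6.87-fold in SW480 (2.78 ± 0.85, adjusted p = 0.026). The SW480 call did not hold when the reads of both rounds were summed (adjusted p = 0.114), without KO clone 21 (log2 fold change 1.29, adjusted p = 0.175), without WT clone 4 (1.96, 0.168), or without any 1 of WT 4A (0.0588), WT 4B (0.0757) and KO 21A (0.0747). It was also lost with voom and the clone as random effect (0.0846) and with no filter on low values (0.0938). In HT29 the log2 fold change was 1.08 ± 0.32 with an adjusted p of 0.13, with 1.71 (adjusted p = 0.0082) when WT clone 40 was left out and 0.46, not called, when WT clone 11 was. KO clones were higher than WT clones in each of the 4 pairings of every line, by 0.38 to 1.79 on the log2 scale in HT29, 1.24 to 2.01 in HCT116 and 0.47 to 5.09 in SW480.

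*LAMC1* (ENSG00000135862, chromosome 1, 182992555 to 183114727) encodes the γ chain shared by most laminins, laminin-511 among them. In HCT116 it was at 2793, 3188, 3947 and 4330 in WT and at 5994, 6892, 13102 and 16914 in KO, with no overlap. It rose 2.78-fold (log2 fold change 1.48 ± 0.32, limma adjusted p = 0.018). The call was lost when the reads of both rounds were summed (adjusted p = 0.32), with no filter on low values (0.108), without WT 4A (0.0566) and without WT clone 4 (0.114) or 6 (0.0569), and leaving out KO clone 47 lowered the log2 fold change to 0.87. In SW480, *LAMC1* was at 6355, 6819, 5328 and 5403 in WT and at 5551, 5365, 4764 and 5146 in KO (log2 fold change −0.19 ± 0.09, adjusted p = 0.11). HT29 had 1067, 739, 1814 and 1714 in WT and 1411, 1667, 1924 and 891 in KO (0.18 ± 0.34, adjusted p = 0.82). The groups overlapped in both of these lines.

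The partners of *LAMC1* in laminin-511 were not called in any line. *LAMA5* (ENSG00000130702, chromosome 20, 60883011 to 60942368), the α chain, was at 4285, 3939, 7692 and 10624 in HT29 WT and at 4384, 5791, 5780 and 3716 in HT29 KO. HCT116 had 2903, 2968, 2995 and 3319 in WT and 3371, 4283, 2165 and 2745 in KO. SW480 had 9385, 10201, 9044 and 8641 in WT and 13861, 12305, 9016 and 9390 in KO. WT and KO overlapped in each line, and the log2 fold changes were −0.33 ± 0.33, 0.00 ± 0.17 and 0.24 ± 0.13 with limma adjusted p of 0.64, 1 and 0.17. Exons of *LAMA5* share 244 bases with *ADRM1* on the other strand, 1.71% of the exonic length, and the library kit does not keep the strand.

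*LAMB1* (ENSG00000091136, chromosome 7, 107564244 to 107643658), the β chain, was at 4526, 4474, 3694 and 3277 in SW480 WT and at 6648, 6342, 5904 and 6000 in SW480 KO. The KO libraries were all above the WT libraries, by 1.57-fold, which passed the test on p (limma adjusted p = 0.00051) but not the fold threshold (log2 fold change 0.65 ± 0.10). In HT29 the values were 1681, 1278, 583 and 488 in WT and 464, 438, 1406 and 1346 in KO, and in HCT116 1372, 1253, 557 and 446 in WT and 881, 818, 668 and 651 in KO. One clone of each genotype was high and the other low in HT29, and the log2 fold changes were −0.17 ± 0.53 (adjusted p = 0.90) and −0.11 ± 0.35 (adjusted p = 0.86). *LAMB1* shares 300 exonic bases with *DLD* on the other strand, 1.61% of its exons.

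Of the type IV collagen pair, *COL4A2* was the gene with appreciable reads. *COL4A2* (ENSG00000134871, chromosome 13, 110958159 to 111165556) was at 1192, 1132, 750 and 772 in SW480 WT and at 343, 359, 215 and 208 in SW480 KO. It fell in SW480 to 0.291 of the WT level (log2 fold change −1.78 ± 0.23, limma adjusted p = 0.00012), without overlap between the groups. The value ran from −2.15 to −1.42 over 22 alternatives and was called in each. In HT29, *COL4A2* was at 219, 359.8, 79 and 87.7 in WT and at 191, 237, 292 and 341 in KO, which overlapped (0.76 ± 0.48, adjusted p = 0.46). In HCT116 it was near 0, with 2.75, 0, 6.47 and 5.71 in WT and 2.95, 2.83, 13.9 and 3.81 in KO.

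*COL4A1* (ENSG00000187498, chromosome 13, 110801310 to 110959504) did not follow its neighbour. In SW480 WT, where *COL4A2* had 3977 reads over the 4 libraries, *COL4A1* had 2, and in SW480 KO the reads were 1203 and 15. Over the 24 libraries *COL4A1* ranged from 0 to 24.6 normalized counts. The highest value was that of HCT116 KO 47A, the library with reads on many genes that were silent in the rest of the line, which also had the highest *COL4A2* of HCT116. Without it the largest *COL4A1* value was 11.3, in HT29 WT 40B. At 3 reads or fewer in 10 libraries, *COL4A1* allows no statement on an effect of genotype at this depth. The sequence between the 2 starts, printed above, belongs to both genes. *COL4A2* shares 81 exonic bases with *COL4A2-AS1* and 14 with *COL4A2-AS2* on the other strand, and *COL4A2-AS2* reached 305 normalized counts.

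*COL17A1* (ENSG00000065618, chromosome 10, 105791044 to 105845638), whose product spans the membrane in hemidesmosomes, was the member with the widest range between lines. In SW480 WT it had 2 reads in 4A and none in 4B, 5A and 5B, whereas SW480 KO libraries were at 54.5, 25.7, 26.1 and 57.6. The KO libraries held 174 reads, an 82.9-fold ratio of reads per reads on genes, with a 95% interval (exact binomial, counting error only) from 22.6 to 690. Since the gene entered the test only through the KO libraries, limma's call is not given as support. In HT29, *COL17A1* was at 2429, 1647, 5284 and 5681 in WT and at 6037, 5487, 3597 and 1615 in KO (0.17 ± 0.51, adjusted p = 0.89). HCT116 had 246, 312, 56.4 and 48.5 in WT and 64.8, 82.9, 62.1 and 96.1 in KO (−0.67 ± 0.58, adjusted p = 0.48). The mean of SW480 KO libraries, 41 ± 17.5 (SD, n = 4), was below those of HCT116 KO, 76.5 ± 16, and HT29 KO, 4184 ± 2006.

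**Figure D3:**
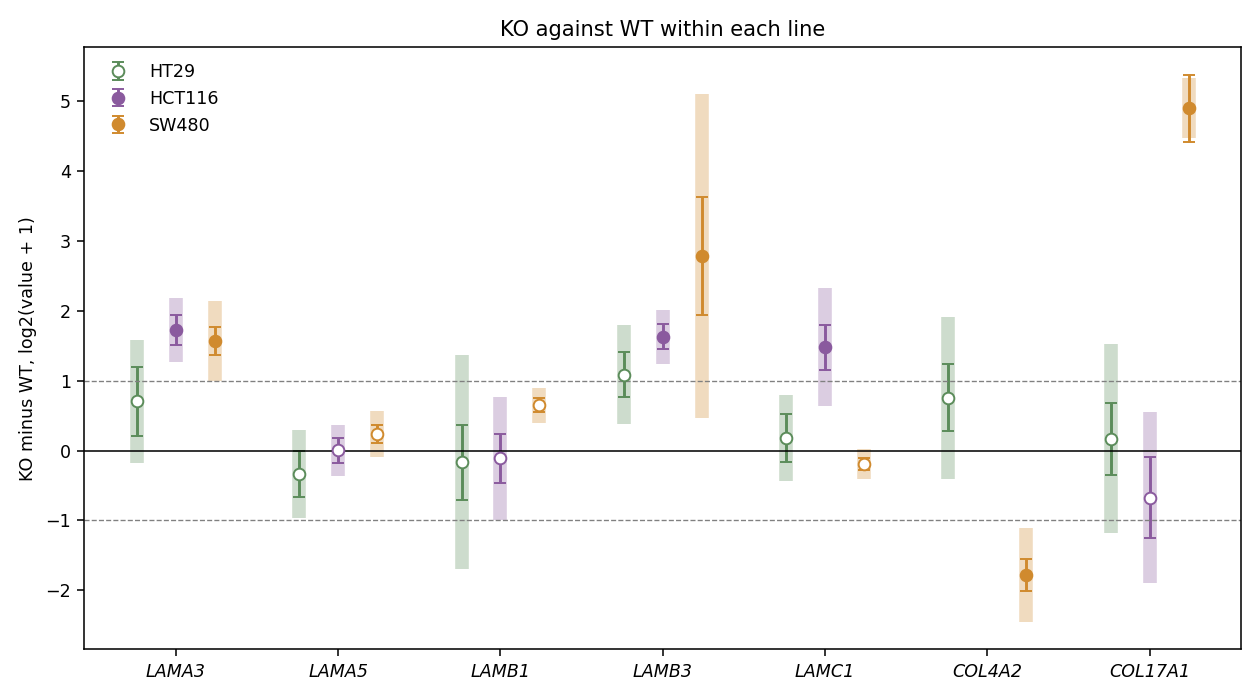
KO minus WT on the log2(value + 1) scale for the 7 members that could be tested, by line. Points are limma estimates with their standard error (filled where called, with *COL17A1* of SW480 admitted to the test only through its KO libraries), pale bars span the 4 differences between a KO clone and a WT clone, and dashed lines mark the fold threshold. *LAMB3* of SW480 spans 0.47 to 5.09 between clones, whereas *LAMA3* of HCT116 spans 1.27 to 2.18.

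Whether the KO effect itself differed between lines was tested across the 24 libraries, and these 3 comparisons share samples. Between HCT116 and SW480, 3 of 7 members were called, against 10.0% of all genes. *LAMC1* differed by 1.67 ± 0.42 on the log2 scale (HCT116 minus SW480, limma adjusted p = 0.0085), *COL4A2* by 2.41 ± 0.77 (0.04) and *COL17A1* by −5.57 ± 0.80 (2.7e-05). In HCT116 *COL4A2* had 16 reads in WT and 23 in KO and could not be tested alone, so that its effect there rests on few reads. Between HT29 and SW480 the called members were *COL4A2*, at 2.54 ± 0.77 (adjusted p = 0.026), and *COL17A1*, at −4.72 ± 0.80 (0.00017), which is 2 of 7 against 12.3% of all genes. Between HT29 and HCT116 limma called 0 of 7, against 5.39%, and 1 member, *LAMC1*, had an unadjusted p under 0.05 and was called by edgeR and by DESeq2 (−1.30 ± 0.42, limma adjusted p = 0.063). With all libraries limma called neither *LAMA3* nor *LAMB3* in any of the 3, with differences between −1.70 and 0.16 and standard errors of 0.51 and 0.81. For *LAMB3*, HT29 and SW480 differed by DESeq2 (−2.27, adjusted p = 0.02), and without SW480 KO clone 17 limma called HT29 against SW480 (−3.19, 0.00074) and HCT116 against SW480 (−2.64, 0.0042). *LAMA3* was called without HT29 WT clone 11, at −1.68 against HCT116 (adjusted p = 0.0303) and −1.52 against SW480 (0.0336). Whether the KO effect on these genes differs between lines thus depended on the tool and on single clones. The *COL4A2* differences were lost in 12 of 45 alternatives against HT29 and in 20 of 45 against HCT116, and that of *LAMC1* in 4 of 46, among them leaving out HCT116 WT clone 4 (adjusted p = 0.0604), HCT116 KO clone 47 (0.0796) or SW480 WT clone 4 (0.0603). Both *COL17A1* differences were lost with voom and the clone as random effect (adjusted p = 0.123 against HT29 and 0.0958 against HCT116), and their size depends on the value added before the logarithm, since SW480 WT held 2 reads.

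The WT clones showed which of these genes each line expressed. Levels between genes were compared per kb of exon. In HT29 WT the order of mean normalized counts per kb was *LAMB3* (855 ± 412, SD, n = 4), *COL17A1* (538 ± 289), *LAMA5* (464 ± 221), *LAMC1* (158 ± 61.1), *LAMB1* (54.2 ± 30.7), *LAMA3* (40.64 ± 22.1), *COL4A2* (9.67 ± 6.86) and *COL4A1* (0.431 ± 0.289). Neighbours in this order did not overlap only between *LAMA5* and *LAMC1*, between *LAMA3* and *COL4A2*, and between *COL4A2* and *COL4A1*. HCT116 WT was led by *LAMC1* (422 ± 82.9) and *LAMB3* (380.1 ± 113), which overlapped, followed by *LAMA5* (213 ± 13), *LAMB1* (48.8 ± 25.4), *COL17A1* (23.7 ± 19.1) and *LAMA3* (21.3 ± 6.97), with both type IV collagen genes under 0.76 in every library. In HCT116 the neighbours that did not overlap were *LAMB3* and *LAMA5*, *LAMA5* and *LAMB1*, and *LAMA3* and *COL4A1*. SW480 WT was led by *LAMC1* (708 ± 86.5) and *LAMA5* (652 ± 46.4), which overlapped, then *LAMB1* (215 ± 32.8), *LAMB3* (117 ± 71.4), *COL4A2* (49.9 ± 12.1) and *LAMA3* (45.5 ± 10.8), with *COL17A1* and *COL4A1* under 0.3. In SW480 neighbours did not overlap only between *LAMA5* and *LAMB1* and between *LAMA3* and *COL17A1*. With the longest transcript in place of all exons the order was the same in HT29 and HCT116. In SW480 *LAMA5* then came before *LAMC1* and *COL4A2* before *LAMB3*. By that length the mean of *LAMB1* was 149.6 beside 168.2 for *LAMC1* in HT29 and 592.7 beside 753.8 in SW480. In HCT116 these means were 134.7 and 449.6. The exons of *LAMB1* cover 18592 bases and its longest transcript 6737, so that its level depends on the length used. By mean level per kb of exon, *LAMA3* was the lowest of the 5 laminin chains in all 3 lines. Its libraries overlapped with those of *LAMB1* in HT29 and HCT116 and of *LAMB3* in SW480. Overlap was judged on exon length only.

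**Figure D4:**
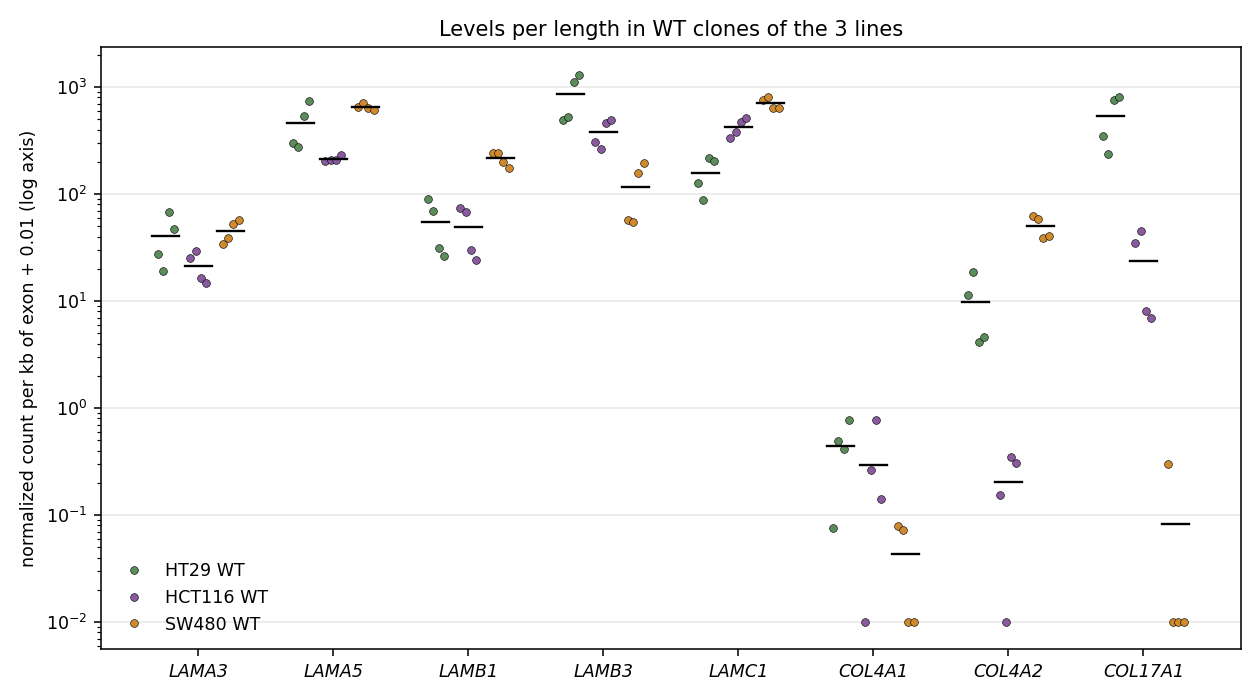
Normalized count per kb of exon plus 0.01 (log axis) of the 8 members in WT libraries of the 3 lines, with a line at the mean of 4. *COL17A1* lies at 236 to 813 in HT29, 6.95 to 44.6 in HCT116 and 0 to 0.289 in SW480, and *COL4A2* at 38.9 to 61.8 in SW480 and 0 to 0.336 in HCT116.

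Between WT clones of 2 lines, 4 to 6 of 7 members were called, where the 3 comparisons share samples and large shares of all genes were called too. HT29 against HCT116 gave 4 of 7 (37.3% of all genes), with *LAMA5* 2-fold higher in HT29 (log2 fold change 1.00 ± 0.25, limma adjusted p = 0.0014), *COL17A1* 27.2-fold (4.77 ± 0.56, adjusted p = 1.6e-07) and *COL4A2* 41.6-fold (5.38 ± 0.55, adjusted p = 1.4e-08), and *LAMC1* at 0.356 of the HCT116 level (−1.49 ± 0.30, adjusted p = 0.00016). HT29 against SW480 gave 5 of 7 (40.0% of all genes). *LAMB3* was 7.82-fold higher in HT29 (2.97 ± 0.58, adjusted p = 0.00013), while *LAMB1*, *LAMC1* and *COL4A2* were at 0.224, 0.211 and 0.164 of the SW480 level. HCT116 against SW480 gave 6 of 7 (39.9% of all genes), in which *LAMB3* was 3.69-fold higher in HCT116 (1.88 ± 0.58, adjusted p = 0.00735) and *LAMA3*, *LAMA5*, *LAMB1* and *COL4A2* were lower. *COL17A1* was higher than in SW480 in both other lines, with 14039 reads in HT29 and 716 in HCT116 against 2, ratios of 7198 (95% interval 1992 to 59441) and 337 (92.9 to 2785). *COL4A2* had 16 reads in HCT116 WT, so that its fitted folds against that line depend on the value added before the logarithm.

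Clones of the same genotype differed in several members. Between HT29 WT clones 11 and 40, 5 of 7 members were called, against 7.58% of all genes. Clone 11 was lower in *LAMA5* (log2 difference −1.14 ± 0.27, limma adjusted p = 0.04), *LAMB3* (−1.25 ± 0.17, 0.0039) and *COL17A1* (−1.45 ± 0.36, 0.046) and higher in *LAMB1* (1.46 ± 0.20, 0.0041) and *COL4A2* (1.74 ± 0.28, 0.009). Leaving out 1 library changed this count to between 0 (without WT 40B) and 6 (without KO 38A or KO 38B), with 1 without WT 11A, 2 without WT 11B or WT 40A, and 3 without KO 28A or KO 28B, while edgeR called 4 and DESeq2 5 with all libraries. HT29 KO clones 28 and 38 differed in 1 of 7, *LAMB1* (−1.61 ± 0.20, adjusted p = 0.0018), where 12.5% of all genes were called.

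In HCT116, WT clones 4 and 6 differed in *LAMB1* (1.39 ± 0.14, limma adjusted p = 0.00088) and *COL17A1* (2.38 ± 0.27, 0.0016), 2 of 6 against 1.44% of all genes. KO clones 44 and 47 differed in *LAMC1* (−1.21 ± 0.14, adjusted p = 0.00094), 1 of 6 against 3.28%. In SW480 *LAMB3* was the 1 of 7 members called in both genotypes, at −1.65 ± 0.12 between WT clones 4 and 5 (adjusted p = 1.6e-06), where 1.97% of all genes were called, and at −2.98 ± 0.12 between KO clones 17 and 21 (adjusted p = 1.1e-09), where 4.61% were. The difference between the SW480 KO clones in *LAMB3* was thus larger than the mean difference between KO and WT, 2.78. *LAMA3* was called in no pair of clones with all libraries, although its clones were not alike. It differed by −1.32 between HT29 WT clones, which was called without KO 38A (adjusted p = 0.00107) or KO 38B (0.001), and by −1.41 between HT29 KO clones without KO 38B (0.00287). In SW480 it passed on p but not on the fold threshold, at 0.56 between KO clones (limma adjusted p = 0.00038) and −0.58 between WT clones (0.00067), as between the HCT116 WT clones (0.81, adjusted p = 0.032).

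Genes that act together with the members moved in part with them, and are given by lists that were assembled with these data known. Of all genes tested, 3.17% were called higher and 1.89% lower in HCT116. In SW480 these shares were 10.7% and 6.76%, and in HT29 1.90% and 0.402%. Among laminin chains outside the members, *LAMA4* rose in HCT116 (3.67-fold, limma adjusted p = 0.015). Its HCT116 libraries were at 196 to 358 in WT and were spread from 543 to 1744 in KO. In SW480 *LAMA4* had 11 reads in WT and 77 in KO libraries and entered the test only through KO, so that no fold or call is given. *LAMA2* fell in HCT116 to 0.173 of the WT level (adjusted p = 1.2e-06) and *LAMC3* to 0.435 (adjusted p = 0.0066). Other type IV collagen chains were called only in HCT116, the line with the least *COL4A2*, where *COL4A3* rose 2.35-fold (adjusted p = 0.016) and *COL4A6* 2.7-fold (adjusted p = 0.0054), 2 of 4 tested, while none could be tested in HT29 and 1, not called, in SW480. Of the other basement membrane components, 3 of 10 rose in HCT116 and 4 of 12 in SW480, and 0 of 11 were called in HT29. The 1 fall in SW480 was *EGFLAM*, at 14.15 to 31.24 in WT and 1.92 to 5.6 in KO libraries. It entered the test only through WT, so that its call is not given as support. *NTN4*, a netrin that binds laminin, rose 8.66-fold in HCT116 (adjusted p = 0.024) and 25.9-fold in SW480 (adjusted p = 1.3e-08). Its HCT116 KO libraries were spread from 112 to 819, against 17.6 to 61 in WT, and its SW480 KO libraries from 1080 to 1322. *TINAGL1* rose in HCT116 (3.74-fold) and *HSPG2*, the gene of perlecan, did as well (2.08-fold), while *COL7A1*, the anchoring fibril collagen that binds laminin-332, rose 10.7-fold in SW480 (adjusted p = 2.8e-05).

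Of the laminin and collagen receptors and hemidesmosome components, 4 of 16 rose in HCT116 and 5 of 15 in SW480, 1 fell in SW480, and limma called 0 of 15 in HT29. Shares over all genes, for this list and the next, were 3.17% higher in HCT116, and 10.7% higher and 6.76% lower in SW480. *ITGA3*, the α subunit of a laminin-332 receptor, rose 3.79-fold in HCT116 (limma adjusted p = 0.00036) and 3.44-fold in SW480 (adjusted p = 2.6e-07). *ITGA6* rose 2.42-fold in HCT116 (adjusted p = 0.00017), and its hemidesmosomal partner *ITGB4* rose 3.22-fold in SW480 (adjusted p = 1.5e-05). *PLEC*, which links the hemidesmosome to keratin filaments, rose 3.18-fold in SW480, and *ITGA1*, a collagen receptor subunit, rose 2.7-fold in HCT116 and fell to 0.125 of the WT level in SW480 (adjusted p = 1.2e-05). Of the genes for collagen and laminin synthesis and secretion, 2 of 15 rose in HCT116, 3 of 16 rose and 1 fell in SW480, and limma called 0 of 14 in HT29. They included *LOXL2*, a lysyl oxidase that crosslinks type IV collagen, at 4.51-fold in HCT116 (adjusted p = 0.0082) and *P3H2*, a collagen prolyl hydroxylase, at 22.7-fold in SW480 (adjusted p = 6.1e-05). *LOXL2* was spread from 736 to 2747 in HCT116 KO libraries, against 195 to 444.5 in WT. The median log2 fold change of the receptor list stood at 0.19 for HT29, 0.47 for HCT116 and 0.65 for SW480, and that over all genes tested at 0.03, −0.01 and −0.0042.

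The members did not share 1 pattern over the 12 clones. As a description over clone means that share libraries and line of origin, Pearson's r was highest between *LAMA5* and *COL4A2* (0.76), *LAMA5* and *LAMB1* (0.69) and *LAMB3* and *COL17A1* (0.68), and lowest between *LAMC1* and *COL17A1* (−0.75). For *LAMA3* and *LAMB3* it was 0.28. The genes outside the set with the most similar pattern, among 18387 compared, were *TMSB4X* for *LAMA3* (r = 0.937), *RSF1* for *LAMA5* (0.968), *HOXC13-AS* for *LAMB1* (0.966), *TMEM161B* for *LAMB3* (0.903), *MIB1* for *LAMC1* (0.968), *PRR5L* for *COL4A2* (0.986) and *RBM47* for *COL17A1* (0.976). With 12 points from 3 lines, differences between the lines make up much of such a pattern.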

How the data were processed

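RNA was prepared with the TruSeq RNA Sample Prep v2 kit, which does not keep the strand, for 24 libraries of 12 clones. The authors aligned reads with STAR 2.7.5b to GRCh37, counted them per gene with featureCounts 2.0.1 and scaled them with DESeq2 (Galaxy 2.11.40.6). The deposited values are a signal per gene, the read count divided by 1 size factor per library. They came out as whole reads in 100.0% of values (tolerance 0.01), and these reads (22297049 to 29068378 per library) were used for depth and for count tests. A further 3 tables of the series hold mean signal, log2 fold change and p-values of the authors' comparisons and were not used.

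Genes that reached 10 in 4 or more libraries were tested with limma 3.58.1 (trend and robust, R 4.3.3) on log2(value + 1), with Benjamini-Hochberg adjustment over all genes tested. A call needed an adjusted p under 0.05 and a log2 fold change over 1 in size. KO and WT were compared in the 8 libraries of a line, clones in the same 8 libraries with each clone as a group, and lines and differences of the KO effect in all 24. The test was checked on simulated data. Alternatives were edgeR 4.0.16 (quasi-likelihood, TMM), DESeq2 1.42.0, other pseudocounts, scalings and filters, the round as a block, reads summed per clone, voom with clones as a random effect, and each library or clone left out. Rounds A and B paired libraries in HCT116 only, where the correlation of deviations between clones was 0.182 to 0.374 in 6 of 6 pairs. It ran from −0.309 to 0.424 in HT29 and from −0.041 to 0.127 in SW480. Rounds of a clone differed by more than counting error in every clone, so no library was counted as a duplicate.

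Intervals of read ratios are exact binomial intervals at 95% and cover counting error only. Motifs were searched and figures drawn with Python 3.11.15, numpy 2.4.6, pandas 2.3.3, scipy 1.17.1 and matplotlib 3.10.9. The members, gene lists and marker lists were chosen with earlier results of these data known. All 8 members are named, and from the lists genes that were called, at most the 4 with the largest change with values. Some genes of the lists are not reported here.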

Additional observations from a re-analysis of the deposited data

Results flagged for a closer look

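Among 46 groups of 4 libraries examined for a library far from the other 3 (gap over range above Dixon's 95% critical value), 4 had one, where chance gives about 1 in 20. *LAMA3* of HT29 KO 38A, at 1945, lay above the other HT29 KO libraries. *COL4A1* of HT29 KO 28B, at 5.87, lay below the others of its group. In HCT116 KO 47A, *COL4A1* at 24.6 and *COL4A2* at 13.9 lay above the others, in the library with reads on 9400 genes that had none elsewhere in the line.

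The KO effect differed between lines by the test of the difference (limma, log2 scale) in 5 cases. *COL4A2* differed by 2.54 between HT29 and SW480 and by 2.41 between HCT116 and SW480, where HCT116 had few *COL4A2* reads (16 in WT, 23 in KO). *COL17A1* differed by −4.72 and −5.57 in the same comparisons. *LAMC1* differed by 1.67 between HCT116 and SW480.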

How the results depend on the processing

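*LAMA3* and *LAMB3* in HCT116 and *LAMA3* and *COL4A2* in SW480 kept their calls in all 22 alternatives, and the counts for SW480 here include *COL17A1*, which entered the test only through its KO libraries. Over single members, 2721 alternative values kept direction and side of the adjusted p threshold, and 85 changed sign. A further 125 lost and 52 gained an adjusted p under that threshold. The fold threshold was not part of these counts, so they are not counts of calls. With the round as a replicate block, 0, 3 and 4 members were called in HT29, HCT116 and SW480, and 2 between the HT29 KO clones, and no call changed in HCT116, where rounds pair. Depth limits *COL4A1* everywhere and *COL4A2* in HCT116. All genes called in HT29 numbered 343 with limma, 780 with DESeq2, 83 with voom and 0 with summed reads. With the block they numbered 217 in HT29, 768 in HCT116 and 2825 in SW480.

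Apart from members removed by a stricter filter, the cause of the following changes was not tested. With at least 10 in every library, *COL4A2* and *COL17A1* were not tested across lines. Their lowest values were 0 in HCT116 WT and in SW480 WT, respectively. Of the members left, 2 were called between WT of HT29 and HCT116 and 3 between WT of HT29 and SW480. The differences of the KO effect of SW480 from HT29 and from HCT116 gave 0 and 1. Those differences gave 1 and 1 with summed reads and with voom, and HT29 against SW480 gave 1 with a pseudocount of 0.1. HT29 against HCT116 gave 1 with edgeR and with DESeq2. DESeq2, a pseudocount of 5, no filter and the block each called 2 between HT29 KO clones, scaling to library totals called 3 between HT29 WT clones, and no filter called 2 between HCT116 KO clones. The sign changed for *LAMA5* in HCT116 KO when scaled to library totals (−0.0191), and for the difference between HT29 and HCT116 in *LAMB1* (0.1 with edgeR, 0.12 with DESeq2) and *COL4A2* (−0.13 with edgeR, −0.12 with DESeq2, −0.61 with a pseudocount of 0.1, −0.13 with voom).

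Leaving out 1 library or clone gave 0 to 1 members called in HT29 KO, 2 to 4 in SW480 KO, 0 to 2, 1 to 4 and 1 to 3 for the differences HT29 against HCT116, HT29 against SW480 and HCT116 against SW480, 1 to 2 between HT29 KO clones and 0 to 6 between HT29 WT clones. All genes called in these fits numbered 115 to 583 in HT29 KO and 2401 to 2677 in SW480 KO. For the differences and the clone pairs such totals were not counted. Without any SW480 KO library or KO clone, *COL17A1* was not tested in that line, so the counts there are of fewer members. Log2 fold changes in HT29 KO ran from −0.90 to 0.23 for *LAMA5*, −0.97 to 0.64 for *LAMB1*, −0.32 to 0.67 for *LAMC1*, −0.11 to 1.63 for *COL4A2* and −0.56 to 0.90 for *COL17A1*. In HCT116 KO they ran from −0.32 to 0.32 for *LAMA5*, −0.81 to 0.58 for *LAMB1* and −1.86 to 0.52 for *COL17A1*, and in SW480 KO from −0.0155 to 0.49 for *LAMA5*. Between WT clones *LAMB1* ran from −0.60 to 0.86 for HT29 against HCT116 and *LAMA3* from −0.96 to 0.36 for HT29 against SW480. Differences of the KO effect of HT29 from HCT116 ran from −0.90 to 0.23 for *LAMA5*, −0.86 to 0.75 for *LAMB1*, −1.17 to 0.0802 for *LAMB3*, −0.81 to 1.06 for *COL4A2* and −0.35 to 2.03 for *COL17A1*. Those of HT29 from SW480 ran from −0.12 to 0.87 for *LAMC1*, and those of HCT116 from SW480 from −0.25 to 0.56 for *LAMA3*, −0.56 to 0.0837 for *LAMA5* and −2.64 to 0.34 for *LAMB3*. Between HT29 KO clones *LAMA3* ran from −1.41 to 0.52, *LAMA5* from −0.20 to 0.44 and *LAMC1* from −0.33 to 0.78, between HCT116 KO clones *LAMA3* from −0.0846 to 0.30, *LAMB3* from −0.0248 to 0.065 and *COL17A1* from −0.39 to 0.24, and between SW480 WT clones *COL17A1* from 0 to 1.60.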
